A study of Mus musculus with 29 samples.

Results

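The B cell antigen receptor and its close partners were followed as 7 member genes through the 29 brain and blood libraries of a mouse stroke study: Ighm, Ighd, Igkc, Cd79a, Cd79b, Ms4a1 and Bank1. They were taken by name, as a list drawn up with earlier results of these data known, and all 7 were present in the tables of young brain (19704 genes), aged brain (27514 genes) and young blood (16623 genes). The antigen receptor of a B cell is a surface immunoglobulin made of heavy and light chains. Naive B cells carry it as IgM and IgD, which share their variable region and are made by alternative processing of 1 transcript, and each cell normally uses either a kappa or a lambda light chain. The chains have almost no cytoplasmic tail, so the signal passes through the Cd79a and Cd79b pair and is tuned by membrane proteins and adaptors such as Ms4a1 (CD20) and Bank1. Plasma cells, the secreting end stage, raise their immunoglobulin transcripts and lower most of the surface receptor programme.

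Single-cell transcripts were measured by Drop-seq in C57BL/6J mice after sham surgery or stroke, the latter made by blocking the middle cerebral artery for a limited time. Young brain (males, 8 to 10 weeks old) had 4 libraries each of sham at day 2, stroke at day 2 and stroke at day 14, and young blood had 4, 4 and 3. Aged brain (17 to 20 months old, with no blood) had 2 for sham at day 2 (1 male, 1 female), 3 for stroke at day 2 (1 male, 2 females) and 1 for stroke at day 14 (1 female). Each brain library pooled 4 to 5 hemispheres sorted for leukocytes, microglia and endothelial cells, and each blood library pooled leukocytes of 2 mice. Sham was taken at day 2 alone, so the comparisons of both stroke times share the same sham libraries, and day 14 differs from sham in time as well as in stroke. The labels do not tie libraries to separate litters or sessions, so p-values measure the spread between pooled libraries.

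The deposited annotation held 542 B cells among 55268 brain cells and 18339 among 51709 blood cells. Blood libraries had 417 to 2573 B cells each, with medians of 309 to 606 counts per B cell. Brain libraries had 4 to 98, with medians of 229 to 766 counts per B cell, so a brain library with few B cells gives a level with a large counting error. Libraries with at least 20 B cells entered the tests, which left 4 sham, 2 stroke day 2 and 3 stroke day 14 libraries of young brain. In the B cells of these libraries the summed level of 10 other B cell marker genes was 3368 to 4232 CPM (a gene's counts scaled to the same total over all genes in every library) in blood and 1767 to 4457 CPM in brain, young and aged. Markers of other types were also present: the 5 microglial markers summed to 0 to 2816 CPM in brain B cells (median 133). In blood B cells, with 2 of these 5 in the table, they summed to 120 to 186 CPM (median 136), so the brain median was no higher. The 6 T cell markers summed to 0 to 680 CPM (median 89.0) in brain and 21.7 to 78.6 CPM in blood. The 5 monocyte or macrophage markers had a median of 212 CPM in brain (up to 1106) and 21.9 CPM in blood (9.55 to 86.0). One of them, Lyz2, was called higher in sham brain than in sham blood (log2 fold change 9.35, adjusted p = 0.000116 by edgeR), with overlapping libraries. Leaving out B cells with at least 2 counts of other types' markers changed the sign of no member's fold change. Under TMM scaling between libraries Cd79b was then also called lower in brain than in blood, in sham (-1.22, adjusted p = 0.0462 by edgeR) and at day 14 (-1.47, 0.0423). Of the 7983 genes in that fit 15 were called higher and 79 lower in sham, and 9 and 49 at day 14. With all B cells and scaling by library size alone Cd79b did not pass (-0.64, adjusted p = 0.463 in sham and -0.86, 0.397 at day 14 by edgeR). Of 106624 different barcodes, 345 occurred in more than 1 library, with at most 7 shared by any pair.

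In mm10 (RefSeq GRCm38.p6) the constant regions of Ighm (chr12:113418826-113422730) and Ighd (chr12:113407535-113416324) lie next to each other, and that of Igkc at chr6:70726435-70726754. Cd79a lies at chr7:24897497-24901858, Cd79b at chr11:106311341-106314562, Ms4a1 at chr19:11249679-11266149 and Bank1 at chr3:136053363-136326141. The RefSeq promoter table matched 2 of the 7 members, and both windows are printed: of these 2, Bank1 was present in microglia and Cd79a was near 0 there. Each window is the 250 bases before a RefSeq start site of GRCm38.p6, read 5′ to 3′ on the gene's strand, which is minus for Bank1 (chr3:136326067-136326316) and plus for Cd79a (chr7:24897247-24897496). The last bases of the Bank1 window, from chr3:136326141 down to chr3:136326067, lie inside the annotated gene, so the start site used is not the outermost. Capitals mark GGAA or its reverse complement, the core bound by the ETS factors.
Bank1: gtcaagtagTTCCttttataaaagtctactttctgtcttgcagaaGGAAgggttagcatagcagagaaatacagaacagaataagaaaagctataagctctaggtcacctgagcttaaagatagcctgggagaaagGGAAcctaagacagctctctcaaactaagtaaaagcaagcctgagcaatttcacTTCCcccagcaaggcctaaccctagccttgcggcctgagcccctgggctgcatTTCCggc
Cd79a: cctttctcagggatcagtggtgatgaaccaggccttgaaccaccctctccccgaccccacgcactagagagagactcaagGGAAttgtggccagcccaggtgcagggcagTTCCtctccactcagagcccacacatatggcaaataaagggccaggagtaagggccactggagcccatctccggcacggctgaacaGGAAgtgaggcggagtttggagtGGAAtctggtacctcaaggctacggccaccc

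The window of Bank1 held this core 5 times and that of Cd79a 4 times, and 93.4% of all 32851 RefSeq windows of this length held it at least once. Neither window held the immunoglobulin octamer ATGCAAAT, the EBF1 motif (TCCC, any pair of bases, GGGA) or the PU.1 motif GAGGAAGT on either strand, which were present in 1.60%, 0.779% and 2.44% of all windows. These counts describe letters only.

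Blood B cells carried all 7 receptor genes in each of the 11 libraries, with the 3 conditions overlapping. Relative to its level, the range over libraries was widest for Cd79a, at 661 to 1377 CPM. Ighm, the IgM heavy chain, stood at 3867, 3651, 4235 and 3783 CPM in the sham libraries, at 3911, 3890, 3650 and 5000 CPM at stroke day 2 and at 3918, 3775 and 4582 CPM at day 14. Ighd, the IgD heavy chain, stood at 3307, 3709, 3339 and 3850 CPM in sham, at 3114, 4243, 4129 and 3585 CPM at day 2 and at 3896, 3316 and 2454 CPM at day 14. Both heavy chains overlapped between the 3 conditions, and the lowest Ighd value belonged to stroke day 14 replicate 3.

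Igkc, the kappa light chain constant gene, was the most abundant member in blood, with 10663 ± 1644 CPM (SD, n = 4) in sham, 10491 ± 1336 (n = 4) at day 2 and 11211 ± 176 (n = 3) at day 14. Of the signalling pair, Cd79a averaged 1043 ± 229, 1013 ± 108 and 786 ± 124 CPM in the same order. Cd79b averaged 2035 ± 409, 1984 ± 280 and 2028 ± 225 CPM. Ms4a1, the CD20 membrane protein, averaged 2571 ± 113, 2509 ± 235 and 2853 ± 650 CPM. The 3 conditions overlapped for each of these 4 genes.

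Bank1, a scaffold that links the receptor to Lyn and to calcium release, was at 1094, 1347, 1022 and 1049 CPM in sham, 1085, 1304, 1438 and 995 CPM at day 2, and 1323, 1170 and 1203 CPM at day 14. Its highest values fell in the 4 shallowest libraries of all conditions: 1304 to 1438 CPM where the median B cell had 309 to 378 counts, against 995 to 1203 CPM where it had 437 to 606. Depth thus moved with the Bank1 level within each condition. The other members overlapped between the shallow and the deeper libraries. Ighd was at 3709 to 4243 CPM in the shallow ones and 2454 to 3850 CPM in the deeper ones, and Cd79a at 909 to 1377 and 661 to 1098 CPM. Ighm (3650 to 3918 and 3775 to 5000 CPM), Igkc, Cd79b and Ms4a1 had lower ranges in the shallow ones. The part of depth in these levels and in the share of Ighd was not tested.

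In edgeR's quasi-likelihood test no member changed in blood B cells at either time. At stroke day 2 against sham 0 of the 8762 genes tested (0%) passed an adjusted p of 0.05, with 171 at an unadjusted p under 0.05 and also 0 called in DESeq2, and at day 14 against sham and day 14 against day 2 1 gene did (0.0114%), no member among them. The 7 log2 fold changes at day 2 lay between -0.06 and 0.08. At day 14 they lay between -0.36 and 0.18, with Cd79a the lowest at -0.36 ± 0.17 (SE, adjusted p = 1.00). The standard errors of the 7 members were 0.14 to 0.19 at day 2 and 0.15 to 0.21 at day 14, which limits the size of change these libraries can show.

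The rest of the receptor pathway was followed as a list. This list of 24 signalling genes, among them the kinases Lyn, Syk, Btk and Blk, the adaptor Blnk and the inhibitory phosphatase Ptpn6, was tested in full in blood B cells. None passed in any of the 3 comparisons, with a median log2 fold change of 0.05 at day 2 and -0.02 at day 14, beside -0.03 over all genes tested at both times.

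**Figure D1:**
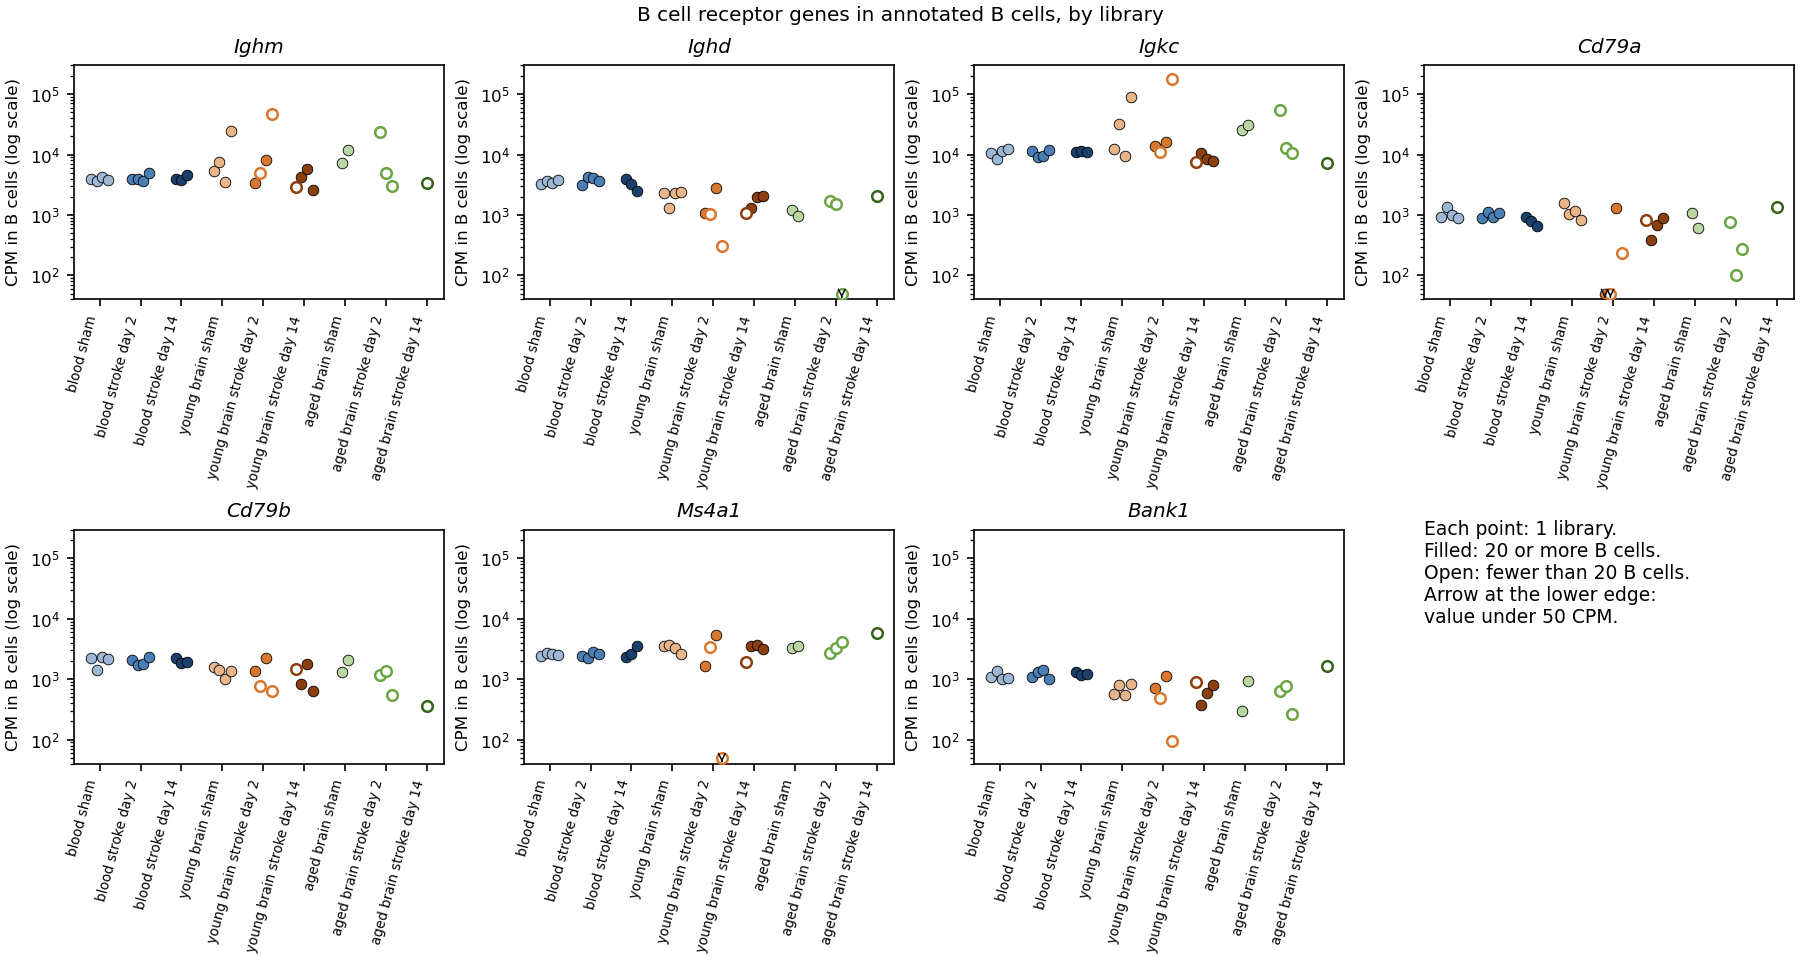
Level of each member in annotated B cells (CPM, log scale) for every library, by tissue, age and condition; filled points have 20 or more B cells and open points fewer. Blood libraries lie close together for each gene, while Ighm and Igkc in brain reach 47386 and 174603 CPM in stroke day 2 replicate 4, a library with 10 B cells.

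The deposited annotation split blood B cells into 7 subtypes, and the receptor genes separated them mainly by heavy and light chain. These clusters were drawn on the same cells, so the values are a description without a test. Subtype Bc3 (1866 cells) had the lowest share of Ighd among the Ighm and Ighd counts, 22.8% over all libraries pooled, against 40.4% to 55.4% in the other 6. By library its share ran from 8.24% to 46.3%. It was below that of the remaining B cells in each library but stroke day 2 replicate 1 (46.3% against 44.2%). Subtype Bc1 (8476 cells), the largest, had the highest. The lowest library of Bc3 held 431 CPM of Ighd and the highest 3212 CPM, over the 10 libraries with at least 20 such cells.

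Subtype Bc6 (1271 cells) stood apart by light chain. Its Igkc level was 3798 CPM against 8203 to 12608 CPM in the other subtypes, and its lambda constant genes (Iglc1 to Iglc3) summed to 14874 CPM against 3841 to 5449 CPM. Kappa made up 20.3% of its light chain counts and 68.1% to 74.7% of those in the others. Of its 1249 cells with a light chain count of at least 0.5, 1068 (85.5%) had more lambda than kappa, against 12.3% to 19.5% in the others. Cd79a, Cd79b, Ms4a1 and Bank1 in Bc6 were at 1067, 2252, 2831 and 1198 CPM, and its Ighm and Ighd at 4737 and 3350 CPM, each within the range of the other subtypes.

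The library with the lowest Ighd, blood stroke day 14 replicate 3, also had the largest share of subtype Bc3. That library had 504 Bc3 cells, 22.6% of its B cells, with an Ighd share of 8.24%, whereas Bc3 made up 1.71% to 15.0% of B cells in the other 10 libraries. Over all its B cells the Ighd share was 34.9%, the lowest of the 11 libraries. Without Bc3 it was 44.5%, inside the 43.6% to 53.4% of the other libraries without Bc3. Leaving out a cluster with so low an Ighd share has to raise the value, so this is a description and no test.

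Brain B cells carried all 7 genes, except that Cd79a was at 0 in 1 of the libraries with at least 20 B cells. Apart from Cd79a, the spread between libraries was far wider in Ighm and Igkc than in the rest. Ighm in young sham brain was at 5387, 7634, 3569 and 24099 CPM, and Igkc at 12277, 31822, 9584 and 90334 CPM. At stroke day 2 the 2 libraries with at least 20 B cells (replicates 1 and 3) had 3425 and 8114 CPM of Ighm and 13772 and 16212 CPM of Igkc. Sham replicate 4 thus held several times the level of any other tested young library.

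At stroke day 14 Ighm in replicates 2, 3 and 4 was at 4293, 5862 and 2583 CPM and Igkc at 10573, 8311 and 7727 CPM. Among the libraries with too few B cells to test, stroke day 2 replicate 4 (10 cells) reached 47386 CPM of Ighm and 174603 CPM of Igkc. In aged brain, Igkc was at 24993 and 30252 CPM in the male and female sham libraries and at 54714 CPM in the male stroke day 2 library (11 cells), against 12770 and 10619 CPM in the 2 female ones (18 and 4 cells).

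These peaks lay in single cells. Cells with at least 20% of their counts on immunoglobulin genes, a limit set after seeing a gap in the data, numbered 12 of the 542 brain B cells (2.21%, exact 95% interval 1.15% to 3.84%), found in 6 of 18 libraries. In blood they numbered 2 of 18339 (0.0109%, 0.00132% to 0.0394%), both in sham replicate 2. The intervals cover counting error only, and cells of 1 library are not replicates of a condition. No B cell of either tissue lay between 10.9% and 28.3%.

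The 12 brain cells had 28.3% to 73.8% of their counts on immunoglobulin genes and 222 to 5151 counts in all. All 12 had Ighm and Igkc counts, 10 had Jchain (the chain that joins IgM pentamers), 7 had Mzb1 (a chaperone of antibody secretion) and none had Ighd, Igha or IgG heavy chain counts. A gene missing from a table was read as 0. The smallest brain table held 6 of a list of 11 other immunoglobulin genes, on which Igha and the IgG heavy chains stand. Their lack of counts can therefore not be told apart from missing genes. Of the surface receptor genes, Cd79b was counted in 4 of them and Ms4a1, Cd79a and Bank1 in 1 each. Annotation placed 9 in brain subtype Bc2 and 3 in Bc1. Kappa was over 80% of the light chain counts in 11 of the 12. The remaining cell, in stroke day 2 replicate 4, had 1116 Igkc and 1890 lambda counts among 5151, the highest total of the group. Whether it is 1 cell or several in a droplet was not tested.

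The 2 blood cells and 1 further blood cell annotated as pre1 (stroke day 14 replicate 2) were of another isotype. They had 121, 123 and 174 counts of Igha, the IgA heavy chain, and no Ighm. A last cell, in the aged stroke day 14 brain, was annotated as microglial subtype Mg5 and had 460 lambda and 59.7 Ighm counts with no Igkc.

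**Figure D2:**
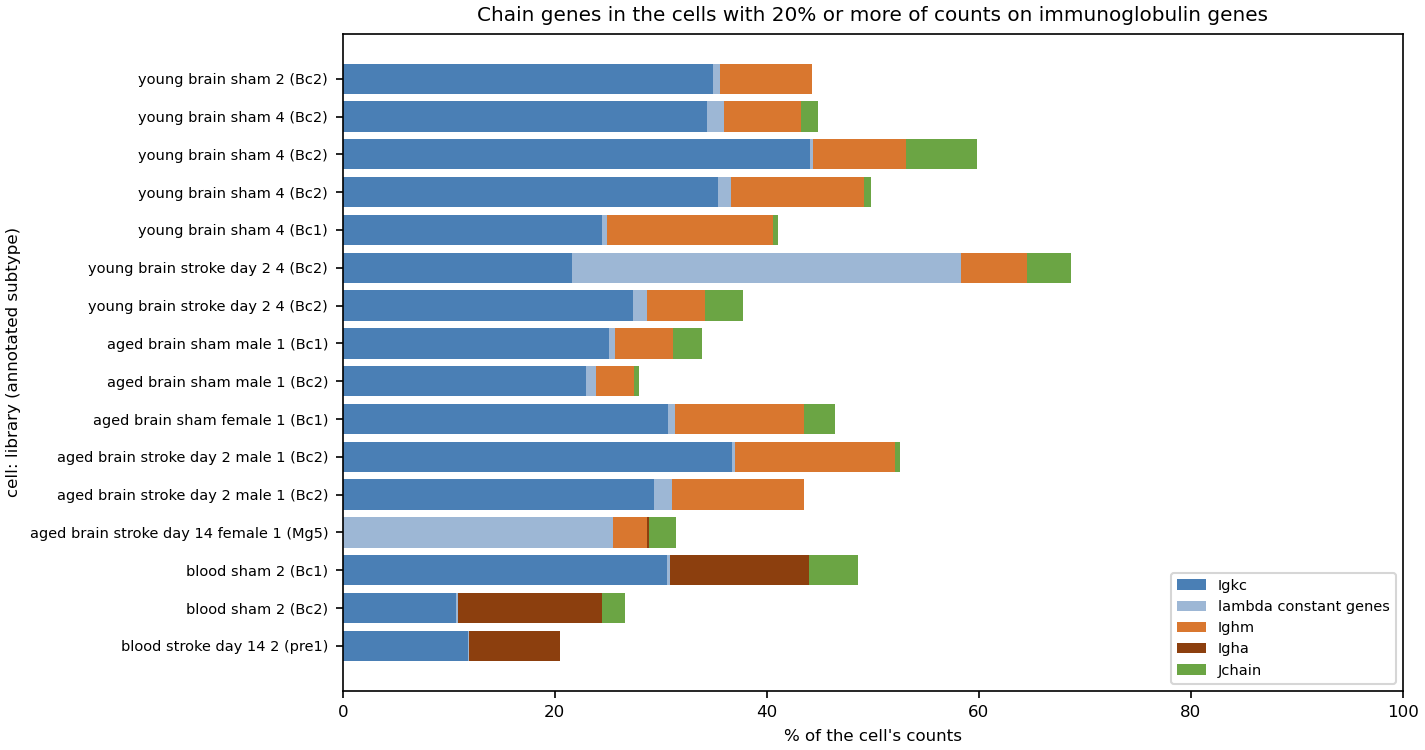
Share of each cell's counts (percent, horizontal axis) on Igkc, the lambda constant genes, Ighm, Igha and Jchain in the 16 cells with 20% or more of their counts on immunoglobulin genes, each named by its library and annotated subtype. The 13 brain cells carry Ighm, and the 3 blood cells carry Igha in its place.

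Leaving these cells out removed the peaks. In young sham replicate 4, 4 of 30 B cells held 91.3% of the Ighm and 91.1% of the Igkc counts, and without them Ighm was 2698 CPM and Igkc 10367 CPM. In sham replicate 2, 1 cell of 60 held 67.7% of the Ighm and 65.7% of the Igkc counts, and the levels without it were 2625 and 11599 CPM. Without the 2 cells of stroke day 2 replicate 4, Ighm fell to 7630 CPM and Igkc to 18808 CPM. In the other 3 libraries with such cells, all aged, Igkc was 9160 to 11616 CPM without them.

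Of the remaining members, all but Cd79a varied less in young brain. Ighd was at 2352, 1295, 2291 and 2435 CPM in sham, at 1096 and 2781 CPM at day 2 (replicates 1 and 3) and at 1319, 1989 and 2040 CPM at day 14 (replicates 2 to 4). Cd79a averaged 1157 ± 315 CPM (SD, n = 4) in sham and 648 ± 251 CPM (n = 3) at day 14, and was at 0 and 1284 CPM in the 2 day 2 libraries. Cd79b averaged 1363 ± 247 CPM in sham and 1077 ± 603 CPM at day 14. Ms4a1 averaged 3290 ± 492 and 3492 ± 305 CPM, and Bank1 689 ± 149 and 594 ± 213 CPM.

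No member changed in brain B cells after stroke by edgeR's test. Of the 409 genes with enough counts to be tested, 0 (0%) passed at day 14 and 0 (0%) at day 2, while 20 and 11 had an unadjusted p under 0.05. DESeq2 also gave 0 calls in both comparisons. At day 14 Igkc was lower than in sham by a log2 fold change of -2.13 ± 0.80 (adjusted p = 0.745) and Ighm by -1.36 ± 0.71 (adjusted p = 0.949). Without the immunoglobulin-rich cells the Ighm difference had the opposite sign, 0.32, and the Igkc difference was -0.23 (adjusted p = 0.993 for both by edgeR). The other 5 members had log2 fold changes of -0.83 to 0.07 at day 14, with standard errors of 0.35 to 0.69.

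Brain and blood B cells were then set against each other in 1 fit. Bank1 was at 575, 795, 548 and 838 CPM in sham brain and at 1094, 1347, 1022 and 1049 CPM in sham blood, so every brain library lay below every blood library. Ighd was at 1295 to 2435 CPM in sham brain and 3307 to 3850 CPM in sham blood, also without overlap. Cd79b in sham brain, 1026 to 1612 CPM, overlapped with blood, 1425 to 2303 CPM. Ms4a1 went the other way in raw CPM, at 2604 to 3732 CPM in brain and 2462 to 2722 CPM in blood.

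In the fit with TMM scaling, 2 of the 7 members passed in sham, both lower in brain: Bank1 with a log2 fold change of -1.29 ± 0.28 (adjusted p = 0.0188) and Ighd with -1.31 ± 0.31 (adjusted p = 0.0339). Over all 8161 genes tested, 82 passed (1%), 23 higher and 59 lower (0.723%), and 18.4% had every brain library below every blood library on the TMM scale. On that scale 3 of the 7 members did so, Bank1, Ighd and Cd79b. In fits of brain B cells alone 409 genes, all 7 members among them, had enough counts to be tested. The shares over 8161 genes thus come mostly from genes with few brain counts and are not a like background for the members. At day 14, 38 passed (0.466%), 9 higher and 29 lower (0.355%), and of the members Bank1 alone, with -1.49 ± 0.32 (adjusted p = 0.0192). The day 14 values of Ighd and Cd79b were -1.35 ± 0.36 (adjusted p = 0.0805) and -1.34 ± 0.37 (adjusted p = 0.0949). The day 14 Ighd difference was called in 2 of 10 alternatives (adjusted p = 0.0359 to 0.588 over the 10) and the day 14 Cd79b difference in 2 of 10 (0.0353 to 0.566). That of Cd79b in sham (-1.13, adjusted p = 0.0813) was called in 4 of 9 (0.0139 to 0.463).

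The calls also rested on single libraries. With each of the 20 libraries left out in turn, the sham call was kept in 11 cases for Bank1 (adjusted p = 0.00528 to 0.0884 by edgeR) and in 7 for Ighd (0.00848 to 0.120). Without any 1 of the 4 blood sham libraries both sham calls were lost, and so they were without blood stroke day 2 replicate 1 or blood stroke day 14 replicates 2 or 3. Bank1 was further lost without brain sham replicates 1 or 3, and Ighd without brain sham replicates 1, 2 or 4, blood stroke day 2 replicates 3 or 4 or blood stroke day 14 replicate 1. The day 14 call of Bank1 was kept in 16 of 20 (0.00656 to 0.0937), and lost without brain day 14 replicates 2 or 3 or blood day 14 replicates 1 or 2. All 3 calls were lost with a minimum of 10 B cells per library and in fits of the compared groups alone. Over all alternatives other than leaving out a library, the day 14 call of Bank1 was kept in 6 of 10 (adjusted p = 0.0113 to 0.165 by edgeR or DESeq2). Each of the sham calls was kept in 6 of 9.

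These calls depend on the scaling between shallow brain and deep blood libraries. On simulated data TMM gave brain B cells log2 fold changes that were too low. All simulated libraries shared 1 profile pooled over both tissues, apart from genes changed on purpose. How much of the shift in the real data this error covers was therefore not tested. TMM put the median of all genes at -0.54 in sham and -0.45 at day 14, library size alone at -0.08 and 0.01, and DESeq2 at -0.03 and 0.08. The split of calls in sham moved from 23 higher and 59 lower under TMM to 30 and 6 under library size and 69 and 12 in DESeq2. At day 14 it moved from 9 and 29 to 17 and 6 and to 61 and 12. Under library size neither Bank1 (-0.82, adjusted p = 0.235) nor Ighd (-0.81, adjusted p = 0.281) passed in sham, nor did Bank1 at day 14 (-1.01, adjusted p = 0.165). In DESeq2 these 3 passed (adjusted p = 0.0493, 0.0134 and 0.0321). A scaling moves nearly all genes and their median alike. Values relative to that median therefore hardly change with the scaling by construction, and their narrow ranges do not show that a difference is stable. Relative to the median of all genes, Bank1 was lower under the 8 scalings and cell sets compared, by -0.83 to -0.72 in sham and -1.11 to -0.94 at day 14. Ighd was lower by -0.82 to -0.73 in sham and -0.95 to -0.84 at day 14, and Cd79b by -0.64 to -0.55 and -0.95 to -0.87. Tissue cannot be told apart from digestion and sorting here, since blood cells were neither digested nor sorted.

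Ighm and Igkc in sham brain were above blood with the immunoglobulin-rich cells (0.64 ± 0.37 and 1.01 ± 0.42, neither passing under TMM, adjusted p = 0.403 and 0.227) and at -0.73 and -0.58 without them (adjusted p = 0.257 and 0.334). The median of all genes was -0.57 in that fit, and relative to it Ighm was at -0.16 and Igkc at -0.0055. Igkc passed in DESeq2 alone (1.71, adjusted p = 0.0353). Ms4a1 and Cd79a changed sign with the scaling, from -0.16 and -0.31 under TMM to 0.31 and 0.15 under library size. Relative to the median of all genes, which the scaling moves as well, Ms4a1 was at 0.32 to 0.43 and Cd79a at 0.15 to 0.25 under the 8 settings in sham. Of the 24 signalling genes, all tested, 2 passed under TMM in sham, where 1% of all genes were called and 0.723% lower, and both were lower in brain: the kinases Syk (-1.36 ± 0.34, adjusted p = 0.0444) and Blk (-3.11 ± 0.74, adjusted p = 0.0339). At day 14 Syk (-2.36 ± 0.42, adjusted p = 0.00368) and Lyn (-1.85 ± 0.44, adjusted p = 0.0464) passed, where 0.466% of all genes were called. Their values under the other scalings were not examined. The median of the list was -0.99 in sham and -0.70 at day 14, beside the -0.54 and -0.45 of all genes under the same scaling.

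Shares of 2 genes within a library do not depend on its scaling. Ighd made up 30.4%, 14.5%, 39.1% and 9.18% of the Ighm and Ighd counts in the sham brain libraries and 46.1%, 50.4%, 44.1% and 50.4% in sham blood. The brain mean was 23.3% ± 13.9 (SD, n = 4) and the blood mean 47.8% ± 3.18 (n = 4), a difference of -24.5 percentage points. Every brain library was below every blood library, which gives the smallest p this design allows (exact two-sided permutation p = 0.0286). It did not pass adjustment over the 10 share tests (0.143).

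Without the immunoglobulin-rich cells, which have Ighm and no Ighd, the difference was -8.32 percentage points (exact permutation p = 0.171, adjusted 0.400), and brain and blood libraries then overlapped. The difference was negative under each alternative run, from -29.7 to -8.32. At day 14 Ighd made up 31.0% ± 11.4 (n = 3) in brain and 43.8% ± 7.91 (n = 3) in blood (exact permutation p = 0.200, adjusted 0.333, with 0.100 the smallest possible). In blood the share was 47.8% ± 5.64 (n = 4) at stroke day 2, 0.0753 percentage points from sham (exact permutation p = 0.971).

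The kappa share of the light chain counts in blood was 66.2% ± 1.73 (n = 4) in sham, 69.0% ± 2.32 (n = 4) at day 2 and 70.7% ± 0.774 (n = 3) at day 14. The day 14 libraries all lay above the sham libraries, by 4.50 percentage points on average (exact permutation p = 0.0286, the smallest possible, adjusted 0.143). A single test at that p cannot pass adjustment over 10 tests. In brain it was 80.2% ± 11.5 (n = 4) in sham and 69.3% ± 5.70 (n = 3) at day 14, with the highest value, 93.5%, in sham replicate 4. Sham brain was above sham blood by 14.0 percentage points (exact permutation p = 0.0571, adjusted 0.190), and by 3.20 without the immunoglobulin-rich cells. None of the 10 share tests passed after adjustment.

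**Figure D3:**
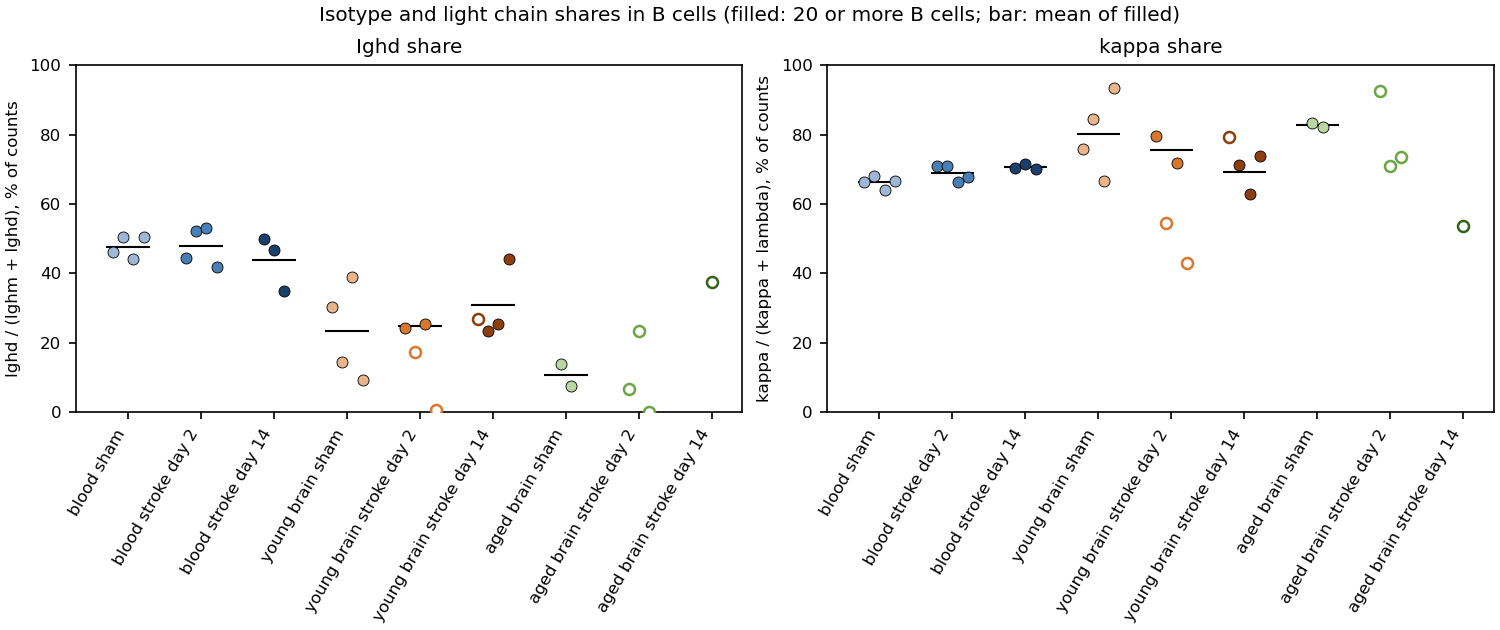
Share of Ighd among Ighm and Ighd counts (left) and of kappa among light chain counts (right), in percent, for each library of B cells; filled points have 20 or more B cells, open points fewer, and bars are means of the filled points. Sham brain libraries lie between 9.18% and 39.1% for Ighd and sham blood libraries between 44.1% and 50.4%.

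Outside B cells the members fell into 3 patterns, here from the cells of the young libraries pooled by type. Cd79a, Ms4a1 and Ighd were close to absent, at under 10 CPM in all 11 other brain types, with maxima of 3.02, 5.98 and 9.17 CPM. Igkc was under 10 CPM in 9 of the 11. In blood the 68 cells coded UC carried every member at an intermediate level, such as 1559 CPM of Igkc and 475 CPM of Ms4a1, and the code pre had 739 CPM of Igkc, the cell coded pre1 described above included.

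Ighm was the exception among the immunoglobulin genes, present in every blood type and in most brain types. It was at 286 CPM in blood T cells, 261 in dendritic cells, 148 in monocytes, 139 in NK cells and 42.1 in neutrophils. In brain it was at 253 CPM in NK cells, 201 in T cells, 180 in microglia and 46.5 in the code MdC, but at 1.41 CPM in endothelial cells and 0 in the codes MC and Epi of the same libraries. The ratio of Igkc to Ighm was 3.02 in brain B cells and 2.68 in blood B cells, and 0.0258 in microglia, 0.117 in brain T cells, 0.0264 in blood T cells and 0.0222 in monocytes. Other types had higher ratios: 3.68 in blood pre, 1.93 in UC, 0.892 in Eos.Bas and 0.756 in brain endothelial cells. The part of free RNA from B cells in these levels was not tested. The step that made the deposited counts fractional is not given in the sources used here, and its part in these levels was not tested.

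Cd79b was at 21.2 CPM in microglia, 20.4 in the code BAM, 23.6 in blood monocytes and 20.3 in blood T cells. It was under 10 CPM in 7 of the 11 other brain types, NK cells at 0 among them, and at 0.337 CPM in blood neutrophils. Bank1 was the member with the smallest distance between B cells and the next type in brain: 661 CPM in B cells, 91.5 in the code BAM and 49.8 in microglia. The level in B cells was 7.22 times that of the next type for Bank1, against 289 times for Cd79a and 551 times for Ms4a1.

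**Figure D4:**
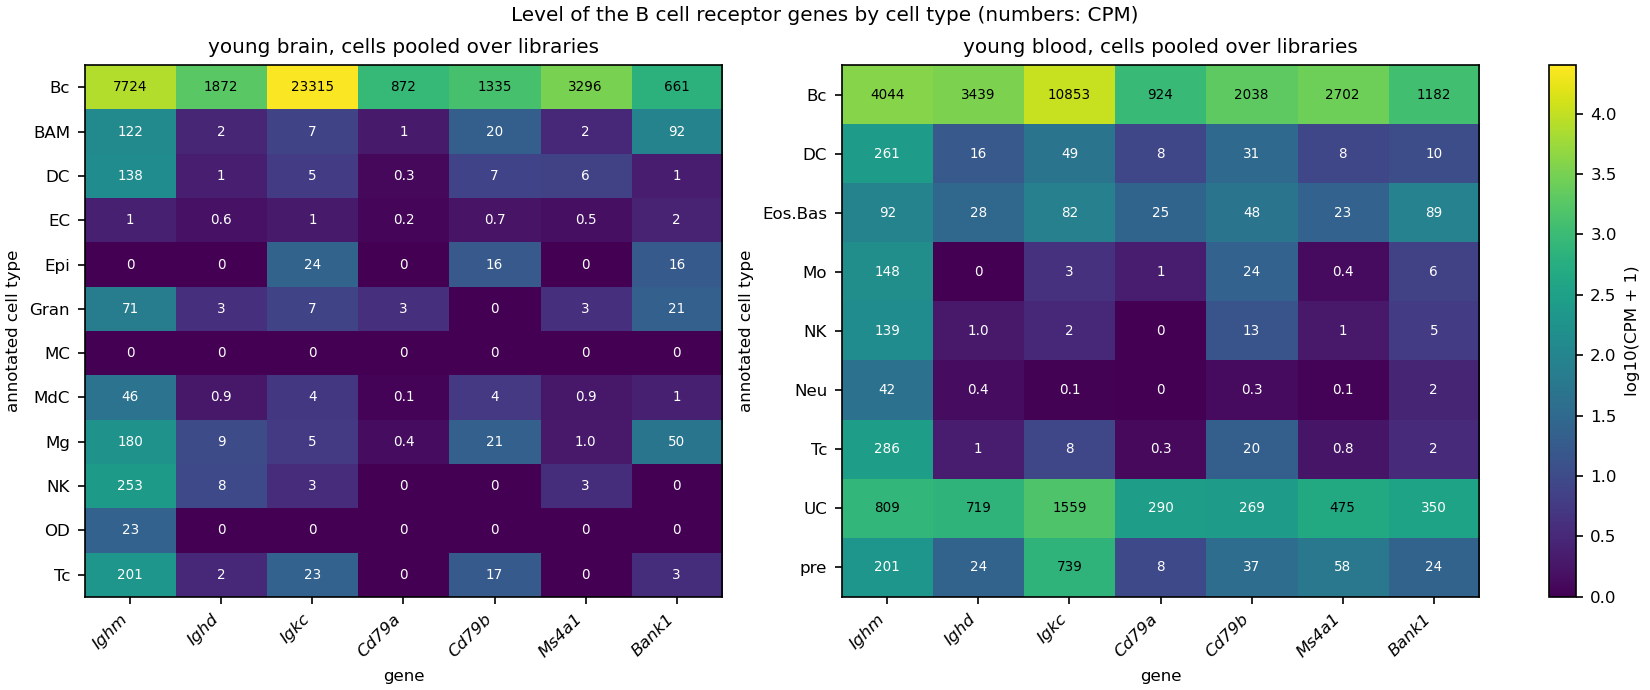
Level of the 7 members in each annotated cell type of young brain (left) and young blood (right), cells pooled over libraries, with the color showing log10(CPM + 1) and the numbers CPM. The B cell row is highest for each gene, Ighm extends over the leukocytes, and Bank1 is at 49.8 CPM in microglia (Mg) and 91.5 CPM in BAM.

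Microglia, the resident macrophages of the brain, had less Bank1 after stroke. In young sham brain Bank1 was at 88.3, 112, 131 and 151 CPM, at stroke day 2 at 36.5, 35.3, 24.6 and 20.7 CPM, and at day 14 at 1.81, 3.06, 6.75 and 13.6 CPM. The 3 groups did not overlap. Among all genes 19.1% lay below sham without overlap at day 2 and 9.83% at day 14, and 4.53% lay lower at day 14 than at day 2. By edgeR, Bank1 fell 3.53-fold at day 2 (log2 fold change -1.82 ± 0.43, adjusted p = 0.00676) and 14.4-fold at day 14 (-3.84 ± 0.45, adjusted p = 7.03e-05), and it was lower at day 14 than at day 2 (-2.02 ± 0.47, adjusted p = 0.0203). Calls are common among microglial genes: 3182 of 10145 passed at day 2 (31.4%), 1544 at day 14 (15.2%) and 703 between the times (6.93%), with 15.7%, 4.66% and 3.46% of genes called lower. Both calls against sham held with each of the 12 libraries left out, and the call between the times was lost in 1 of 12, without stroke day 2 replicate 1 (adjusted p = 0.0608), and in a fit of the compared groups alone (0.0520).

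Depth differed between the groups, with medians of 330 to 648 counts per microglial cell in sham and 433 to 2042 at day 14. Over cells with at least 800 counts the Bank1 differences from sham were -2.12 at day 2 and -4.64 at day 14 (adjusted p = 0.0033 and 3.52e-05 by edgeR). The part of depth in the Bank1 level was otherwise not tested. The defining B cell gene Ms4a1 was at 0 to 7.87 CPM in these 12 sets of microglia and Cd79a at 0 to 3.77 CPM.

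The label was checked in the same cells: the 5 microglial markers summed to 13869 to 20385 CPM in sham and 11690 to 15487 CPM at day 14. At day 2 they summed to 10963 to 12716 CPM in 3 libraries and to 640 CPM in replicate 3, which had 58 microglia. Without that library the Bank1 difference at day 2 was -1.83 (adjusted p = 0.0134 by edgeR) and that between the times -2.03 (0.0322). The 10 B cell markers summed to 6.83 to 13.7 CPM in sham, 1.18 to 20.7 CPM at day 2 and 42.2 to 50.1 CPM at day 14. Of these 10 only Cd22, which is also on the signalling list, had enough counts in microglia to be tested, and it rose by 2.75 at day 14. The 5 monocyte or macrophage markers summed to 2878 to 4402, 1952 to 4628 and 3950 to 4900 CPM. The 4628 CPM belonged to day 2 replicate 3, against at most 2987 CPM in the other day 2 libraries. In that library the monocyte or macrophage markers thus exceeded the microglial ones, which goes against its microglial label.

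Single markers of these lists changed in the microglia as well, where 31.4% of all genes were called at day 2 and 15.2% at day 14. Lyz2 (2.17 and 3.71) and Fcgr1 (0.79 and 0.76) of the monocyte or macrophage list were called higher at day 2 and day 14, and the other 3 of that list were not called, with Csf1r at -1.23 and -0.62. Of the plasmacytoid dendritic cell list, 3 of 5 genes were tested: Bst2 (2.46 and 2.87) and Cox6a2 (2.38 and 3.88) were called higher at both times, and Siglech was called lower at day 2 (-1.77). Of the 5 microglial markers, P2ry12 was called lower at day 2 (-1.76, adjusted p = 0.0408 by edgeR). Prdm1 of the plasma cell list (-2.46) and Csf3r of the neutrophil list (-1.13) were called lower at day 2, and Pecam1 of the endothelial list at day 14 (-2.58). The part of these shifts in the Bank1 difference was not tested.

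Bank1 differed between the annotated microglial subtypes. Mg1 and Mg2 made up 53.6% and 37.2% of sham microglia and had 128 and 110 CPM there, pooled over libraries. Mg3 made up 66.1% of microglia at day 14, with 2.84 CPM. In sham, Mg3 was 0.855% of microglia (93 cells), with 67.6 CPM pooled and 74.6 and 99.6 CPM in the 2 libraries with at least 20 such cells, inside the range of Mg1.

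Within Mg1 the libraries with at least 20 cells lay at 71.5 to 159 CPM in sham, 47.2 to 84.8 at day 2 and 26.3 to 103 at day 14, and the ranges overlapped. Within Mg2 they lay at 98.4 to 135 CPM in sham, 28.3 and 63.2 at day 2 and 54.4 in the single library at day 14. Within Mg3 they lay at 0 to 55.9 CPM at day 2 and 1.02 to 6.90 CPM at day 14, below both sham libraries. Within Mg4 they lay at 73.1 to 192 CPM in sham, up to 30.2 CPM at day 2 and 46.1 CPM in the single library at day 14. Mg5, Mg6 and Mg8 had sham libraries at 57.9 to 241, 39.5 to 125 and 95.5 to 168 CPM, and stroke libraries up to 42.5, 7.83 and 18.9 CPM. Mg7 had 1 such sham library, at 200 CPM, and stroke libraries up to 60.7 CPM. Among libraries with at least 20 such cells, sham and stroke thus overlapped in Mg1 and not in the other 7 subtypes. Several of these rest on 1 or 2 libraries a group and on very few counts. The sham values of Mg3, Mg4 and Mg7 rest on 1.28 to 3.27 Bank1 counts a library. Libraries with fewer cells did not all follow: sham Mg3 replicate 1 (17 cells) was at 0. Mg6 of stroke day 2 replicate 4 (6 cells) was at 85.3 CPM, inside its sham range. The subtype values were not tested.

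Of the other members in microglia, Ighd fell at day 2 (-1.69 ± 0.49, adjusted p = 0.0206) and at day 14 (-1.42 ± 0.43, adjusted p = 0.0411), from 17.7, 13.6, 16.1 and 24.7 CPM in sham to 2.64, 10.7, 0 and 3.72 CPM and to 5.30, 1.52, 3.87 and 7.82 CPM. These calls rest on few counts: without 1 library they were lost in 4 of 12 cases at day 2 and in 9 of 12 at day 14, and both were lost with no filter on low counts (adjusted p = 0.0510 and 0.0727 by edgeR). The day 14 call was also lost over cells with at least 800 counts (0.0955). Ighm had log2 fold changes of -0.22 ± 0.24 (adjusted p = 0.491) and -0.13 ± 0.23 (adjusted p = 0.733), and passed at day 14 under library size alone (-0.60, adjusted p = 0.0444). Cd79b did not pass (0.46 and -0.13, adjusted p = 0.361 and 0.836). Igkc, Cd79a and Ms4a1 had too few counts in young microglia to be tested.

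In aged brain Bank1 was at 69.1 and 81.8 CPM in the male and female sham microglia, at 31.2, 21.9 and 72.2 CPM at stroke day 2 (male, female 1, female 2) and at 20.6 CPM in the single day 14 library. The day 2 groups overlapped, and Bank1 did not pass (-0.96 ± 0.41, adjusted p = 0.254, with 2.3% of 11096 genes called). The difference between the aged and the young change was 0.82 ± 0.53 (adjusted p = 0.783, with 0% of genes called), which shows neither a difference by age nor its absence. Igkc was tested in the aged microglia as well, with 14 counts in sham and 0 at stroke day 2 (-7.16 ± 2.51, adjusted p = 0.166 by edgeR). The sham counts lay in 1 library (39.3 CPM), and Igkc was called in 1 of 8 alternatives other than leaving out a library. Cells coded BAM had 124 ± 61.7 CPM of Bank1 (SD, n = 4) in young sham, 47.2 ± 71.0 CPM at day 2 and 42.8 ± 47.6 CPM at day 14 (n = 4 each), with overlapping libraries.

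**Figure D5:**
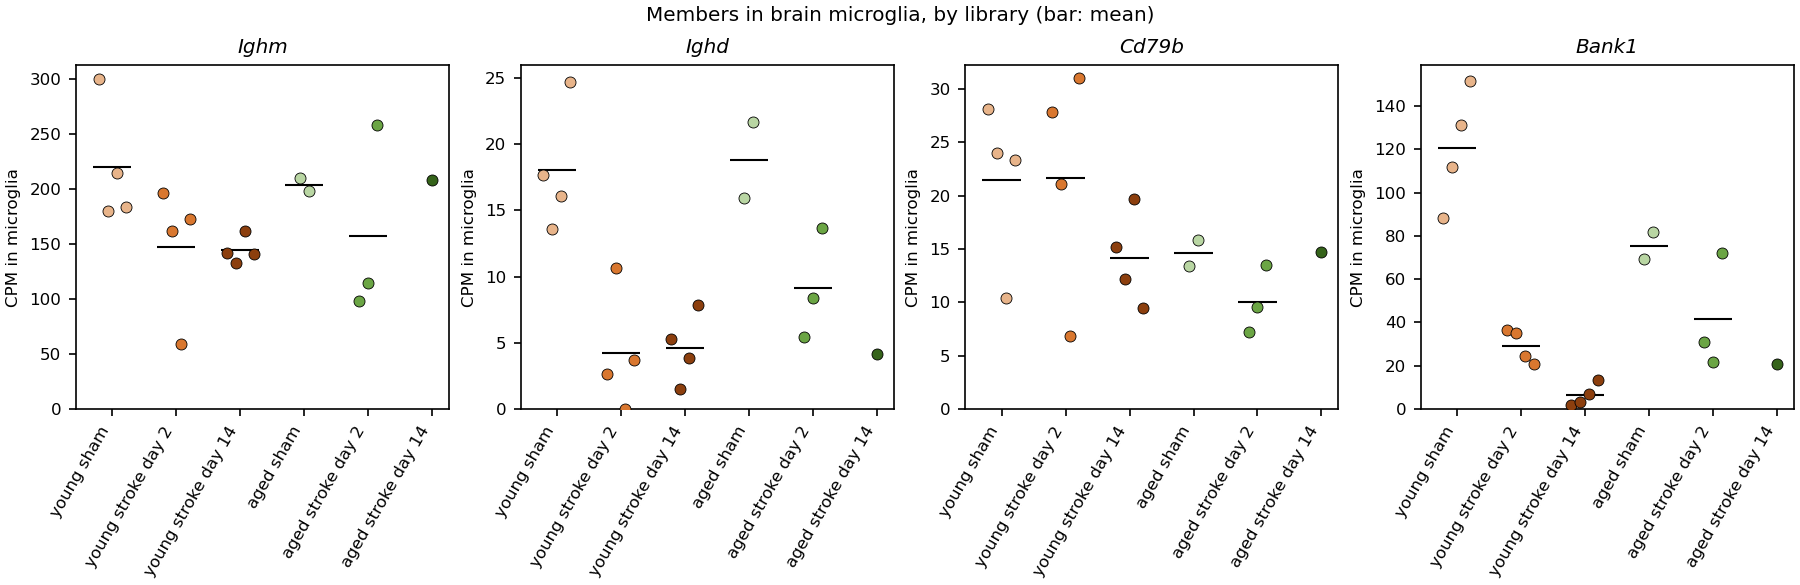
CPM of Ighm, Ighd, Cd79b and Bank1 in brain microglia for each library, by age and condition, with bars at the group mean. Bank1 in the young libraries steps down without overlap from 88.3 to 151 CPM in sham to 20.7 to 36.5 CPM at day 2 and 1.81 to 13.6 CPM at day 14.

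In the same microglia the signalling list, of which 20 genes were tested, changed in both directions. At day 2, 9 fell and 1 rose, where 15.7% of all genes were called lower and 31.4% in either direction. The genes that fell included Syk (-1.26 ± 0.29, adjusted p = 0.0062), the BCL10 partner Malt1 (-1.67 ± 0.38, adjusted p = 0.00572) and the adaptor Dapp1 (-1.38 ± 0.25, adjusted p = 0.00136). The gene that rose was Cd72, an inhibitory coreceptor (6.14 ± 0.55, adjusted p = 1.48e-05). At day 14, where 4.66% were called lower and 15.2% in either direction, 1 fell, Dapp1 (-1.25 ± 0.23, adjusted p = 0.00264), and 3 rose: Cd72 (6.34 ± 0.56, adjusted p = 6.27e-06), the sialic acid receptor Cd22 (2.75 ± 0.30, adjusted p = 4.05e-05) and the inhibitory Fc receptor Fcgr2b (0.72 ± 0.21, adjusted p = 0.038). The list's median was -0.55 at day 2 and -0.18 at day 14, beside -0.05 and -0.04 for all genes. Between the times, where 6.93% of all genes were called in either direction and 3.46% lower, 3 rose and 0 fell: Cd22 (1.87), the adaptor Bcl10 (0.97) and Ptpn6 (0.79).

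Across cell types with at least 50 pooled young cells, the genes whose pattern was most like the mean of the members were found by Pearson's r of log2(CPM + 1). Only genes with at least 20 CPM in B cells, where the members are high, were candidates. In brain, over 12 types, they were Iglc2 (0.951), Fam129c (0.946), Fcer2a (0.944), Iglv1 (0.928) and Jchain (0.925). Jchain rested on the immunoglobulin-rich cells: it was at 1587 CPM over the 196462 counts of young brain B cells. Single immunoglobulin-rich cells held 213, 42.0 and 40.1 of its counts. In blood, over 9 types, they were Iglc2 (0.995), Tnfrsf13c (0.988), Iglc3 (0.985), Pax5 (0.983) and Cd22 (0.975). The types of 1 tissue share their libraries, so these are descriptions. Among the members themselves Ighm had the lowest r to that mean, 0.709 in brain and 0.853 in blood, and Bank1 the next lowest in brain (0.770).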

How the data were processed

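Single-cell transcripts of 29 mouse libraries were measured by Drop-seq. The authors deposited 1 table per library with expected counts per gene and cell, not whole numbers; the step that made them fractional is not given in the sources used here. The submitters' processing notes name the mm10 build and Seurat. Cell types are the deposited annotation, at 2 levels, and every deposited cell was used. Members and gene lists were chosen with earlier results of these data known.

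Counts were summed per library and type (at least 20 cells), rounded, and fitted with edgeR 4.0.16 (TMM, filterByExpr on group, quasi-likelihood test, two-sided, Benjamini-Hochberg over all genes tested, threshold 0.05). Each standard error is the fold change divided by the root of its F value. Tested on simulated data, TMM gave brain B cells, with far shallower sums than blood, log2 fold changes that were too low, so the comparison of tissues is also given under library size and relative to the median of all genes. Shares were compared by exact permutation. Alternatives were DESeq2 1.42.0, filters, scalings, cell minimums, cells with at least 800 counts and each library left out. Leaving out immunoglobulin-rich cells, and B cells with counts of other types' markers, were chosen after seeing the data. Scrublet (scanpy 1.11.5) marked 38 of 106977 cells (0.0355%) and so did not work on these tables; doublets were not removed. Same-numbered libraries did not all deviate together (correlations -0.32 to 0.40 in blood B cells, -0.35 to 0.70 in brain B cells and -0.29 to 0.55 in microglia), so numbers were not used as pairs. Such a check cannot exclude pairing, and it was not made between brain and blood. Named genes are the 7 members, the 5 genes most like them per tissue and signalling genes that passed, some as examples. R 4.3.3 was used.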

Additional observations from a re-analysis of the deposited data

Results flagged for a closer look

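In 39 groups of 4 libraries tested with Dixon's rule on the members' levels and shares, 2 had 1 library far from the others; chance flags about 1 in 20 groups. Cd79b in blood B cells of sham replicate 2 was at 1425 CPM, against 2187 to 2303 CPM in the other 3 sham libraries. That library also had the shallowest B cells of its group (median 343 counts). Ighd in B cells of young brain sham replicate 2 was at 1295 CPM, against 2291 to 2435 CPM in the other 3.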

How the results depend on the processing

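Under settings other than leaving out a library, 599 log2 fold changes of members kept their direction and their side of the threshold, 30 changed sign, 14 calls were lost and 11 were gained. Most member comparisons had no call to lose, so the 599 say little about how stable the calls are. The values below are log2 fold changes of members, numbers of genes called by edgeR unless DESeq2 is named, or differences of shares in percentage points. The cause of each change was not tested. In brain B cells 409 genes had enough counts to be tested, against 8762 in blood B cells.

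In DESeq2, 2 genes were called in blood B cells at day 14 against sham and 12 between the times (1 each in edgeR), 73 between brain and blood at day 14 (38) and 466 in aged microglia (255). Signs changed for Ms4a1 in brain B cells at day 2 (0.035), for Cd79a (0.11) and Ms4a1 (0.29) between sham brain and blood, and for Ighm (0.022) and Ms4a1 (0.26) at day 14. With no filter on low counts the numbers were 5 and 32 in blood, 2 and 1 in brain B cells at days 14 and 2 (0 each), 253 and 102 between tissues in sham (82) and at day 14, and 393 in aged microglia. Bank1 in brain B cells at day 14 was then 0.0078.

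Under library size without TMM, 36 and 23 genes were called between tissues in sham and at day 14. In microglia the numbers were 3425 at day 14 (1544) and 1157 between the times (703). Signs changed in blood for Cd79b at day 14 (-0.0062) and Ighm between the times (-0.0023), in brain B cells for Ms4a1 at day 2 (0.21), and between tissues for Cd79a (0.15) and Ms4a1 (0.31) in sham and Ighm (0.029) and Ms4a1 (0.26) at day 14. In microglia they changed between the times for Ighm (-0.22) and Ighd (-0.0056).

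With cells of at least 800 counts, 0 and 2 genes were called in blood, Cd79b changed sign in blood at day 14 (-0.052) and in microglia at day 2 (-0.032), and the brain B cells and the sham tissue comparison could not be fitted. With counts rounded up the numbers were 0 and 0 in blood, 65 between tissues at day 14, 1057 in microglia between the times and 386 in aged microglia, and Ms4a1 in brain B cells at day 2 was 0.088. With the compared groups alone they were 0 and 2 in blood, 28 and 17 between tissues, 426 in microglia between the times and 0 in aged microglia, and Ms4a1 was 0.063 in brain B cells at day 2 and 0.049 between tissues in sham. With libraries of at least 10 B cells, 41 genes were called between tissues in sham, Ighm and Igkc in brain B cells at day 2 were 1.38 and 1.36, and Ms4a1 between tissues was 0.14 and 0.087.

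Without immunoglobulin-rich cells Ighm in brain B cells was 0.32 at day 14 and 0.64 at day 2, Igkc at day 2 was 0.41, and Ighm and Igkc between sham tissues were -0.73 and -0.58. The brain differences between day 14 and sham were then -8.44 in the Ighd share and 0.25 in the kappa share. With immunoglobulin genes left out of the scaling, 128 and 58 genes were called between tissues. Without B cells with other types' markers, 58 were called at day 14, and the Ighd share in blood at day 2 differed by -0.049. As a mean over cells, the Ighd share differed by -1.06 in blood at day 2 and -1.40 in brain at day 14.

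The labels do not say whether the replicate numbers pair the samples. With the replicate number as a block, 0 and 3 genes were called in blood, Ms4a1 in brain B cells at day 14 was -0.088, and the numbers called in microglia stayed within 1.5 times those without it. The block changed no other call.

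Leaving out each library in turn gave the following ranges. In blood at day 2, Cd79b ran from -0.22 to 0.032, Cd79a from -0.11 to 0.066, Igkc from -0.17 to 0.050, Ms4a1 from -0.099 to 0.018, Bank1 from -0.016 to 0.16 and Ighm from -0.052 to 0.14. At day 14, Igkc ran from -0.030 to 0.19, Cd79b from -0.15 to 0.10, Ighd from -0.26 to 0.083 and the genes called from 0 (without day 14 replicate 3) to 7 (without day 14 replicate 1). Between the times, Ighm ran from -0.045 to 0.15, Cd79b from -0.018 to 0.16 and the genes called from 1 to 15 (without day 14 replicate 1, and 3 without day 2 replicate 3). In brain B cells at day 2, Ms4a1 ran from -1.21 to 0.60, Ighd from -1.07 to 0.27, Cd79a from -7.63 to 0.0085, Cd79b from -0.22 to 0.61 and Bank1 from -0.018 to 0.62, and at day 14 Bank1 ran from -0.36 to 0.0028.

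Between tissues in sham, 35 (without brain sham replicate 2) to 156 genes (without brain day 2 replicate 3) were called, Ighm ran from -0.038 to 0.91 and Ms4a1 from -0.35 to 0.016. At day 14, 20 (without brain day 14 replicate 3) to 93 genes (without brain day 2 replicate 1) were called, and Ms4a1 ran from -0.51 to 0.018. In microglia at day 2, 2094 to 3524 genes were called, the fewest without day 2 replicate 4. At day 14 it was 791 to 2573, the most without day 14 replicate 4 and 791 to 894 without sham replicates 2, 3 or 4 or day 14 replicate 1, and Cd79b ran from -0.38 to 0.025. Between the times it was 276 (without day 2 replicate 4) to 735, Ighd ran from -0.11 to 0.75 and Ighm from -0.029 to 0.17. In aged microglia 0 to 357 genes were called, with 0 without the female sham, 15 without the male sham and 61 without stroke female 1, and Igkc ran from -8.23 to 0. The kappa share between tissues at day 14 ran from -3.64 to 1.83, and the Ighd share in blood from -1.67 to 2.10 at day 2 and from -6.93 to 0.56 at day 14. Removal of doublets by Scrublet was not run, since it marked too few cells.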

Other observations

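B cells were 1.31% of cells in the median young sham brain library (0.789% to 3.22%), 0.461% at stroke day 2 (0.223% to 0.810%) and 1.07% at day 14 (0.302% to 1.73%), within a sort that sets how many other cells are counted. In blood the medians were 38.4%, 21.2% and 38.5%, with ranges of 30.9% to 50.3%, 13.8% to 53.4% and 32.9% to 50.1%.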
